A study of Mus musculus with 9 samples.

Results

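The cytosolic ribosomal protein genes encode the protein part of the ribosome that works in the cytosol. They were taken as the genes with an Ensembl identifier, a symbol of the Rpl or Rps family (Rplp0, Rplp1, Rplp2 and Rpsa included), a Ribosome entry in the KEGG pathway column of the authors' table, and a mean level of at least 0.5 FPKM over the libraries. FPKM is fragments per kilobase of transcript per M mapped fragments, where M is the SI prefix mega. The rule gave 80 genes of 27339 in the table, 48 of the large subunit and 32 of the small subunit, and all 80 were among the 14949 genes tested. Of 84 Ensembl genes with a matching symbol, 4 were left out. Rpl41, at 150.9 FPKM, carried no Ribosome entry, while Rpl3l at 0.23 FPKM, Rpl39l at 0.048 FPKM and Rpl10l, listed at 0, lay below the minimum. The lowest genes inside it were Rps27l at 12.1 FPKM, Rpl7l1 at 15.6 FPKM and Rps20 at 19.8 FPKM.

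The RNA came from mouse substantia nigra pars compacta, where dopamine neurons that project to the striatum have their cell bodies, and was sequenced in bulk. The 9 libraries formed 3 groups of 3, namely mice that received MPTP and the diet that the labels call MCT-KD (group MPTP + MCT-KD), mice that received MPTP, and controls (Ctrl). MPTP is a toxin whose oxidised product enters dopamine neurons and blocks mitochondrial complex I, and MCT-KD is, by the study's title, a ketogenic diet built on medium-chain triglycerides. The labels used here give no strain, age, sex, dose or time, and leave unsaid whether libraries are separate animals. A p-value here therefore sets a difference between groups only against the spread of these libraries, which may be technical. The diet was measured only together with MPTP, and the comparisons share groups: the MPTP libraries enter 2 of them, and so do the Ctrl and the MPTP + MCT-KD libraries.

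Each ribosome has a small subunit that reads the mRNA and a large subunit that joins amino acids, and each subunit needs nearly all of its proteins in equal numbers. The mRNAs of most ribosomal proteins begin with a C followed by an uninterrupted run of C and T (U in RNA), the 5′ terminal oligopyrimidine (TOP) tract, through which the kinase complex mTORC1 and the binding protein Larp1 set their translation together. Because that control acts on translation, the mRNA level measured here is not a measure of how many ribosomal proteins are made.

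The tract is the feature these genes share in sequence. It was looked for in RefSeq promoter windows (GRCm38.p6, the transcribed strand only) as a C at the annotated start followed by at least 4 bases that are each C or T. A window was present for 60 of the 80 genes, and 13 of them (21.7%) held the tract exactly at an annotated start, against 311 of 10700 other tested genes (2.91%). Within 10 bases of a start it occurred in 36 of 60 ribosomal protein genes (60%) and in 3941 of 10700 other genes (36.8%). A window without the tract says only that these letters are not at the start as annotated. The following genes are shown because they hold the tract at the start and their values are given below. Each line runs 15 bases before and 15 bases from the start, and capitals mark the tract.
Rpl15, chr14:18270972-18271001, minus strand: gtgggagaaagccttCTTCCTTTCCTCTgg
Rpl35a, chr16:33056467-33056496, plus strand: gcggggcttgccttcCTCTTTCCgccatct
Rpl38, chr11:114668565-114668594, plus strand: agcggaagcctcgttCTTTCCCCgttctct
Rplp2, chr7:141447636-141447665, plus strand: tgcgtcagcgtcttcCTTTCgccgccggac
Rps6, chr4:86857353-86857382, minus strand: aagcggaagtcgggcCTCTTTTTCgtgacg
Rps15a, chr7:118116133-118116162, minus strand: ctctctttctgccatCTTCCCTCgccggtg
Rps27, chr3:90213634-90213663, minus strand: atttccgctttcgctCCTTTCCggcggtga

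Each library held at least 33.2 M counts, on average 34.7 ± 0.844 M in MPTP + MCT-KD, 34.8 ± 1.43 M in MPTP and 37.7 ± 2.88 M in Ctrl (SD, n = 3 each). No ribosomal protein gene had fewer than 180 counts in a library, and 77 of 80 had at least 500 in every library. The tissue label was checked with Th, the rate-limiting enzyme of dopamine synthesis, which stood at 61.9 ± 15.2 CPM in MPTP + MCT-KD, 62.4 ± 6.49 CPM in MPTP and 87.0 ± 19.9 CPM in Ctrl (CPM is counts per M counts of a library, after scaling). All 10 dopamine neuron markers lay below Ctrl in MPTP + MCT-KD and in MPTP, with median log2 fold changes of -0.36 and -0.41, and none passed the test. The 7 choroid plexus markers summed to 2070 CPM in the library Ctrl 3 and to 256 to 382 CPM in the other 8 libraries. Most of the sum in those 8 was 1 marker, Enpp2, at 229 to 290 CPM. Another, Ttr, was at 1064 CPM in Ctrl 3, 69.4 CPM in MPTP + MCT-KD 1 and 2.17 to 13.5 CPM in the rest. All 7 oligodendrocyte and all 6 microglia markers lay above Ctrl in both MPTP + MCT-KD (medians 0.25 and 0.19) and MPTP (0.18 and 0.13), again with none passing. All 5 red cell markers lay below Ctrl in both (medians -0.54 and -0.65), and the 6 meninges markers lay below Ctrl in MPTP (median -0.53) and above MPTP in MPTP + MCT-KD (median 0.71). The 3 markers of raphe serotonin neurons summed to between 17.7 CPM in MPTP 1 and 170 CPM in MPTP + MCT-KD 2, where Tph2, the enzyme of serotonin synthesis in neurons, was at 102 CPM and Th at 59.3 CPM. The part of these differences in tissue in the results below was not tested. In such bulk tissue, fewer cells of a type and less RNA per cell cannot be told apart.

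The 80 genes covered a 35.5-fold range of levels, all of them above the median of all genes tested (7.78 FPKM). Their own median was 116 FPKM, 102 FPKM for the large subunit and 136 FPKM for the small subunit. A mean of at least 100 FPKM was reached by 49 of the 80, and by 499 of all 14949 genes tested (3.34%). Together they took 1.026 ± 0.0168% of the counts in MPTP + MCT-KD, 1.023 ± 0.0189% in MPTP and 1.048 ± 0.0199% in Ctrl (SD, n = 3 each). As a share of summed FPKM they took 3.03 ± 0.0415% in MPTP + MCT-KD, 3.03 ± 0.0462% in MPTP and 3.11 ± 0.0731% in Ctrl. The groups overlapped in both shares.

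The 3 highest genes were Rplp1, Rpl3 and Rpl13a of the large subunit. Rplp1, a stalk protein that helps to recruit elongation factors, averaged 419 ± 8.64 FPKM in MPTP + MCT-KD, 432 ± 15.1 FPKM in MPTP and 437 ± 24.3 FPKM in Ctrl (SD, n = 3 each). Its stalk partner Rplp0 averaged 134 FPKM and Rplp2 77.3 FPKM over all libraries, so that the levels of the stalk genes were not equal. Rpl3, which lies close to the site where peptide bonds form, averaged 373 FPKM and Rpl13a 360 FPKM. In the small subunit Rps24 led with 310 FPKM, followed by Rps6, the substrate of S6 kinase, with 306 FPKM. At the lower end by FPKM were Rps27l, Rpl7l1, Rps20, Rpl21 with 27.2 FPKM and Rps15a with 30.0 FPKM. The counts of Rps20 and Rps15a were high for their FPKM, as described below.

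**Figure D1:**
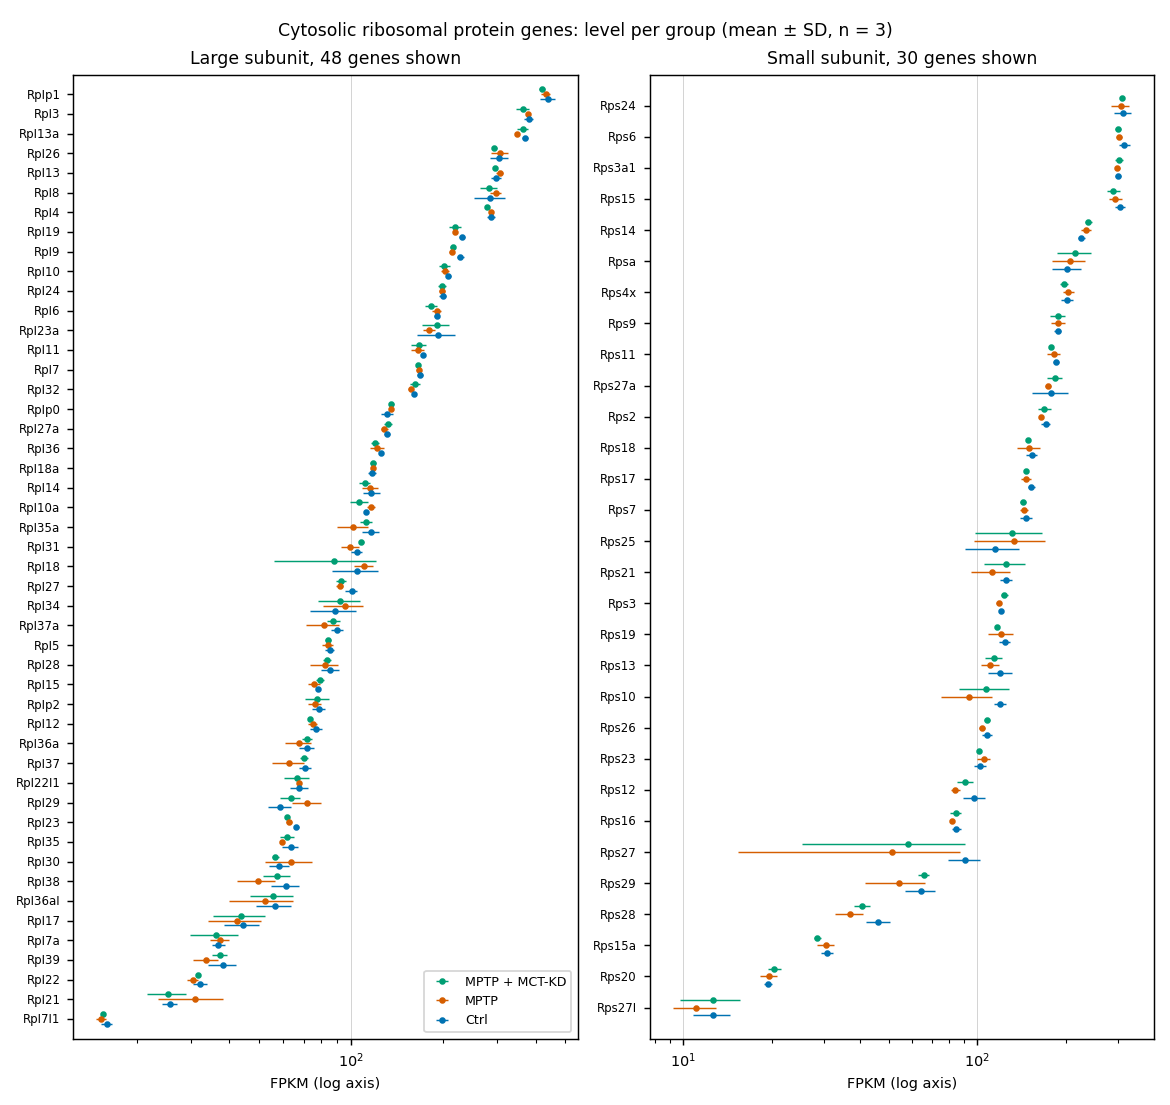
Level of 78 of the 80 ribosomal protein genes in FPKM (log axis), large subunit left and small subunit right, sorted by mean, with points for the group mean and bars for the SD over 3 libraries. Most genes have 3 points that lie together, from 429 FPKM for Rplp1 to 12.1 FPKM for Rps27l, while Rps27, Rpl18 and Rps25 have wide bars.

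FPKM of some genes has a limit of its own. Count and FPKM together imply a transcript length, which should be the same in each library, yet it differed over 1.1-fold between libraries for 11 of the 80 genes and over 1.5-fold for 3. The 3 were Rpl18 (2.22-fold), Rps25 (1.74-fold) and Rps10 (1.56-fold), so FPKM and count of these genes do not tell the same differences between libraries. The order of levels also depends on the length used: by CPM, 6 of the 10 genes highest in FPKM were among the 10 highest. The implied length of Rps15a, 5357 nt, was the longest of the 80, and its count was high for its FPKM, at 155, 151 and 161 CPM in MPTP + MCT-KD, 158, 159 and 156 CPM in MPTP, and 160, 165 and 163 CPM in Ctrl.

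The first comparison asked what MPTP changed. No ribosomal protein gene passed in MPTP against Ctrl (edgeR's quasi-likelihood test with Benjamini-Hochberg adjustment over all 14949 genes, threshold 0.05, where 0.0134% of genes were called), and the lowest adjusted p was 0.868. An unadjusted p under 0.05 was found for 5 of 80 genes (6.25%), close to the 5.36% among all genes tested. Of the 5, 1 was higher, against 2.68% of all genes, and 4 were lower (5%), against 2.69%. DESeq2 called 0 of the 80 and 14 of all genes, and an unadjusted p under 0.05 was found for 5 of the 80 (6.25%) and 5.76% of all genes. By limma on log2(FPKM + 0.1) no gene was called, and an unadjusted p under 0.05 was found for 9 of the 80 (11.2%) and 5.73% of all genes. The log2 fold change was below zero for 62 of 80 genes (77.5%) and for 50.4% of all genes tested. The shift was small, with a median of -0.038 over the 80 genes and -0.00092 over all genes. Without the library MPTP 3 it was -0.0013, with 41 of 80 below zero. The 3 MPTP libraries lay without overlap below the 3 Ctrl libraries for 10 genes (12.5%, against 5.41% of all genes) and above them for 1 of 80 (against 5.14% of all genes), 11 of 80 in all against 10.5%. By subunit, 38 of 48 large subunit genes and 24 of 32 small subunit genes were below zero, with medians of -0.041 and -0.036.

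The gene with the smallest p was higher, not lower. Rpl29, a small basic protein of the large subunit, had 54.9, 53.7 and 61.5 CPM in MPTP, against 44.4, 49.0 and 50.1 CPM in Ctrl. Each MPTP library lay above each Ctrl library. The log2 fold change was 0.25 with an SE of 0.07 (unadjusted p = 0.0049, adjusted p = 0.868). MPTP + MCT-KD libraries had 53.6, 53.9 and 49.4 CPM and overlapped with both other groups. Further genes in this direction, Rpl30 and Rpl22, had log2 fold changes of 0.13 and 0.07, with adjusted p of 0.933 and 0.947.

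The lower genes of smallest p encode small proteins of both subunits. Rps28 had 16.8, 15.1 and 13.0 CPM in MPTP, against 20.3, 17.0 and 18.8 CPM in Ctrl, with no overlap (a log2 difference of -0.32, SE 0.11, unadjusted p = 0.013, adjusted p = 0.893). Rpl38, whose loss in mice causes the tail-short phenotype with skeletal patterning defects, had 21.4, 21.3 and 16.0 CPM in MPTP, against 24.5, 26.8 and 21.3 CPM in Ctrl. Here the lowest Ctrl library lay within the MPTP range (log2 fold change -0.31, SE 0.13, unadjusted p = 0.029, adjusted p = 0.893). Rpl35a had 55.9, 58.0 and 45.5 CPM in MPTP, against 58.4, 59 and 64.0 CPM in Ctrl (a log2 difference of -0.19, SE 0.08, unadjusted p = 0.044, adjusted p = 0.904). In these 3 genes the library MPTP 3 was the lowest of all 9. Rps12 is described below with its copy.

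Of the genes with a further known role, Rpl38 is given above, and the 10 outside the stalk that follow had smaller fold changes in MPTP against Ctrl. Rpl5, Rpl11 and Rpl23 bind and inhibit Mdm2, the ubiquitin ligase of p53, when ribosome assembly is disturbed, and had log2 fold changes of -0.02, -0.04 and -0.08 in MPTP against Ctrl. Rps6 had 278, 286 and 272 CPM in MPTP, against 284, 291 and 301 CPM in Ctrl (a log2 difference of -0.07, SE 0.04, adjusted p = 0.922). Rps19 and Rps14, whose human counterparts are affected in Diamond-Blackfan anaemia and in a deletion form of myelodysplastic syndrome, had log2 fold changes of -0.04 and 0.05. Rpsa, also known as the laminin receptor, Rps3, which lines the mRNA entry channel, and Rps27a, made as a fusion with ubiquitin, had log2 fold changes of 0.03, -0.03 and -0.04. Rpl10, which joins the large subunit late in its maturation, had -0.04. The lowest adjusted p among these 10 genes was 0.922.

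The second comparison asked what the diet changed in mice given MPTP. No ribosomal protein gene passed in MPTP + MCT-KD against MPTP, where 0% of all genes were called by edgeR, and the lowest adjusted p was 0.637. An unadjusted p under 0.05 was found for 3 of 80 (3.75%) and 7.78% of all genes tested, of which 2 (2.5%) were higher, against 3.76%, and 1 lower, against 4.02%. DESeq2 called 0 of the 80 and 19 of all genes, with an unadjusted p under 0.05 for 2 of the 80 (2.5%, against 8.01% of all genes), and limma called 0, with 4 of the 80 (5%, against 7.79%). The log2 fold change was above zero for 51 of 80 genes (63.7%, against 50.2% of all genes) and below zero for 29 (36.2%, against 49.8%), with a median of 0.020. Without the library MPTP 3 that direction turned, with 44 below zero and a median of -0.0080, and with an offset for transcript length, described below, 47 lay below zero, with a median of -0.020. Groups did not overlap for 7 genes that were higher (8.75%, against 6.64% of all genes) and 2 that were lower (2.5%, against 7.1%), 9 in all (11.2%, against 13.7%).

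Rpl37, a zinc-binding protein of the large subunit, had 62.0, 64.4 and 60.9 CPM in MPTP + MCT-KD, against 57.9, 60.3 and 46.6 CPM in MPTP (log2 fold change 0.18, SE 0.08, unadjusted p = 0.048, adjusted p = 0.638). The groups did not overlap, and MPTP 3 was again the lowest library. Rpl15 had 151, 148 and 144 CPM in MPTP + MCT-KD, against 132, 142 and 141 CPM in MPTP (log2 fold change 0.09, SE 0.05, adjusted p = 0.676). Each MPTP + MCT-KD library lay above each MPTP library for Rpl15 too. Rpl35a had a log2 fold change of 0.15, Rpl30 of -0.18, Rpl10a of -0.09 and Rpl29 of -0.12, with adjusted p from 0.680 to 0.720.

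In MPTP + MCT-KD against Ctrl, which sets both treatments together against none, no ribosomal protein gene passed (0% of all genes called by edgeR), the lowest adjusted p being 0.740. An unadjusted p under 0.05 was found for 1 of 80, which was higher (against 6.73% of all genes tested, 3.36% higher and 3.36% lower). DESeq2 called 0 of the 80 and 16 of all genes, with an unadjusted p under 0.05 for 1 of the 80 (against 6.96% of all genes), and limma called 0, with 2 of the 80 (2.5%, against 6.66%). The log2 fold change was below zero for 50 of 80 genes (62.5%, against 50.5%), with a median of -0.018. Groups did not overlap for 5 genes (6.25%, against 12.7%), of which Rpl22 and Rps14 were higher (2.5%, against 6.28%) and Rpl10a, Rpl23 and Rpl27 lower (3.75%, against 6.4%).

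That 1 gene was Rpl22, an RNA-binding protein of the large subunit that mouse cells can live without and whose paralogue Rpl22l1 it keeps low. Rpl22 had 63.0, 67.0 and 64.4 CPM in MPTP + MCT-KD, 58.7, 62.5 and 56.8 CPM in MPTP, and 56.2, 58.6 and 55.2 CPM in Ctrl. Every MPTP + MCT-KD library lay above every Ctrl and every MPTP library. The log2 fold change of MPTP + MCT-KD against Ctrl was 0.19 with an SE of 0.06 (unadjusted p = 0.0054, adjusted p = 0.740), and against MPTP it was 0.13 (unadjusted p = 0.047, adjusted p = 0.637). On the log2(FPKM + 0.1) scale by limma the first of these was -0.03 (adjusted p = 0.949), so its direction against Ctrl rests on the counts. The length implied for Rpl22 differed 1.20-fold between libraries. Rpl22l1 had 41.7, 34.5 and 38.0 CPM in MPTP + MCT-KD, 38.9, 38.8 and 37.2 CPM in MPTP, and 41.1, 38.9 and 35.4 CPM in Ctrl, with overlapping groups and log2 fold changes of -0.02 against Ctrl and -0.01 against MPTP.

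The other genes of smallest p in MPTP + MCT-KD against Ctrl had fold changes smaller than that of Rpl22. Rps14, of the small subunit, had 176, 175 and 168 CPM in MPTP + MCT-KD, against 158, 164 and 164 CPM in Ctrl (a log2 difference of 0.09, SE 0.05, adjusted p = 0.783 by edgeR). Rpl27 had 62.6, 63.9 and 59.5 CPM in MPTP + MCT-KD, against 64.3, 70.9 and 64.2 CPM in Ctrl (a log2 difference of -0.10, SE 0.06, adjusted p = 0.805). Rps14 was higher and Rpl27 lower in each MPTP + MCT-KD library than in each Ctrl library. Rpl29 and Rps20 had log2 fold changes of 0.13 and 0.09, and Rpl23, Rps28 and Rps15a of -0.08, -0.17 and -0.06.

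In the other paralogues the groups overlapped as well. Rps27l, a paralogue of Rps27 that p53 induces, had 6.43, 5.38 and 8.43 CPM in MPTP + MCT-KD, 5.24, 5.44 and 6.78 CPM in MPTP, and 7.77, 6.52 and 5.71 CPM in Ctrl. Its groups overlapped, and its log2 fold changes were 0.02 (SE 0.20) in MPTP + MCT-KD against Ctrl and -0.20 (SE 0.20) in MPTP against Ctrl. Rpl7l1 had 42.9, 43.1 and 42.7 CPM in MPTP + MCT-KD and at most 44.9 CPM in any library, with a log2 fold change of -0.07 in MPTP against Ctrl, against -0.02 for Rpl7. Rpl36al and its parent Rpl36a had log2 fold changes of -0.03 and -0.09 in MPTP against Ctrl, with adjusted p of 0.991 and 0.953.

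**Figure D2:**
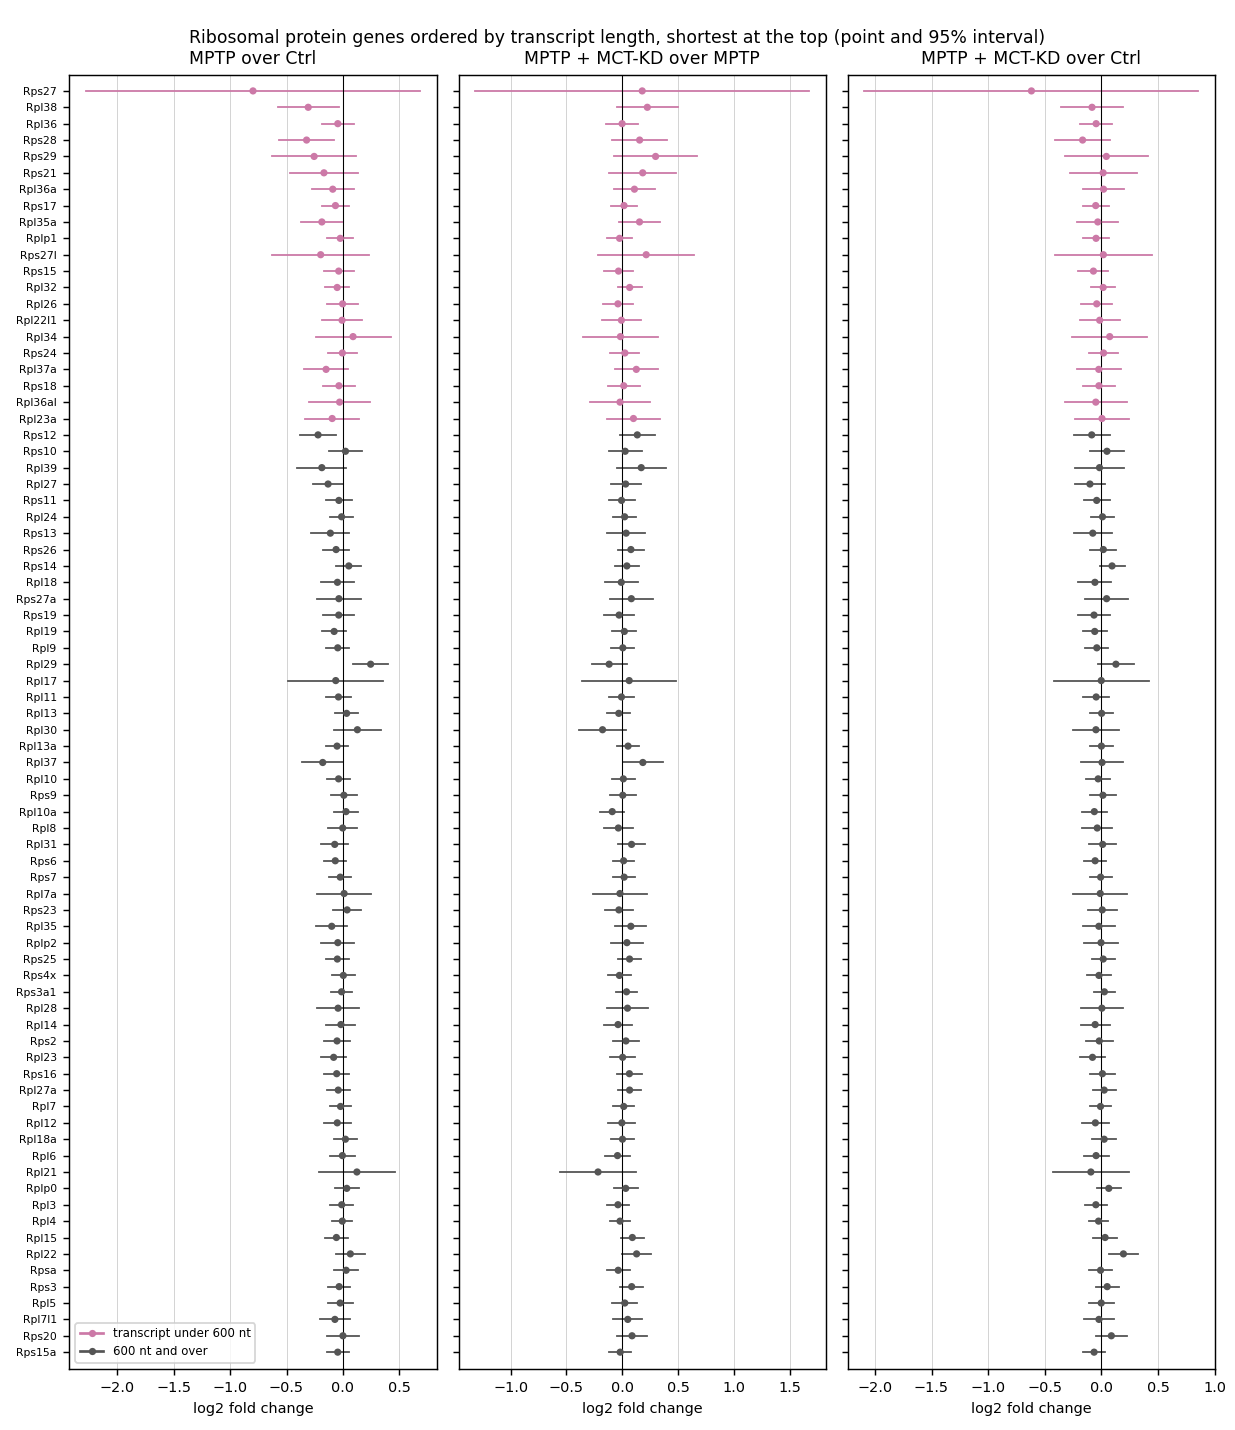
Log2 fold change of 78 of the 80 ribosomal protein genes (point) with its 95% interval (line) in the 3 comparisons, sorted by transcript length with the shortest at the top. In the left panel 20 of the 21 genes with a transcript under 600 nt lie below zero, and their intervals reach a median of 0.185 to either side, against 0.116 over all 59 longer genes of the 80.

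How small a difference these data could have shown can be read from the intervals. The 95% interval of the log2 fold change lay within 0.32 of zero for 63 of 80 genes (78.8%) in MPTP against Ctrl, 66 (82.5%) in MPTP + MCT-KD against MPTP and 71 (88.8%) in MPTP + MCT-KD against Ctrl. The interval reached a median of 0.127 to either side in MPTP against Ctrl. Libraries of the same group differed little, with a median SD of 0.065 on the log2 CPM scale, against 0.089 for the 8946 other genes with a mean log2 CPM over 4. The SD was under 0.1 for 58 of 80 genes and over 0.2 for 6, from 0.0228 for Rps7 to 0.815 for Rps27. The 6 were Rps27, Rpl17, Rps27l, Rps29, Rpl21 and Rpl34. Across the 80 genes the SD was lower for longer transcripts (Spearman -0.54) and for higher FPKM (Spearman -0.45). These values share their libraries and genes are not independent replicates.

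The shift in MPTP was largest in 1 library. The mean log2 deviation of the 80 genes from their Ctrl mean was -0.0096, -0.016 and -0.042 in the MPTP + MCT-KD libraries, -0.00085, -0.052 and -0.12 in MPTP 1, 2 and 3, and -0.020, 0.030 and -0.010 in the Ctrl group. MPTP 3 stood lowest, with 71 of 80 genes below their Ctrl mean, while MPTP 1 lay within the Ctrl range. The values without MPTP 3 are given above with each comparison.

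**Figure D3:**
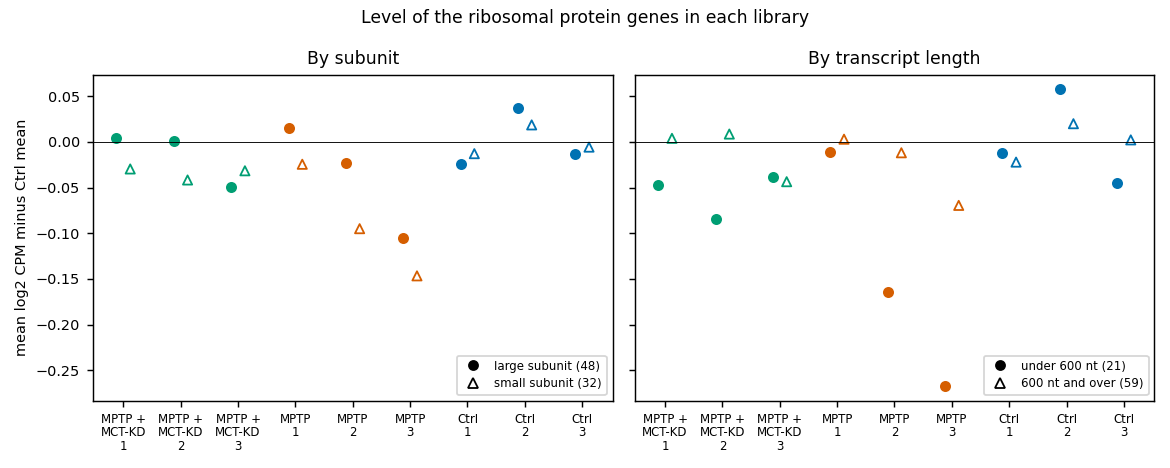
Mean log2 CPM of the ribosomal protein genes in each library minus the Ctrl mean, split by subunit (left) and by transcript length (right). MPTP 3 is lowest in both panels, at -0.10 for the large and -0.15 for the small subunit, and its 21 genes under 600 nt stand at -0.27.

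The deviation of that library followed transcript length. Genes with a transcript under 600 nt, 21 of the 80, averaged -0.047, -0.085 and -0.039 in MPTP + MCT-KD, -0.012, -0.16 and -0.27 in MPTP, and -0.012, 0.058 and -0.045 in Ctrl. The 59 longer genes averaged 0.0039, 0.0086 and -0.044 in MPTP + MCT-KD, 0.0030, -0.012 and -0.070 in MPTP, and -0.022, 0.020 and 0.0022 in Ctrl. In MPTP 3, 20 of the 21 short genes were below their Ctrl mean. The short genes include Rps27, which stood at 6.57 CPM in MPTP 2 and is described below.

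Short transcripts outside these 80 genes also deviated downward in MPTP 3. The genes outside the 80 were not freed of ribosomal proteins: Rpl41 and Fau, which the rule did not take, are among them. In classes of 400 to 600 nt, 600 to 800 nt, 800 to 1000 nt, 1000 to 1500 nt and 1500 to 2500 nt, the median deviation of ribosomal protein genes in MPTP 3 was -0.16, -0.11, -0.069, -0.059 and -0.031, over 19, 15, 19, 16 and 6 genes. Outside these classes the median was -0.67 for the 2 genes under 400 nt, Rps27 and Rpl38. It was -0.089 for 2 genes of 2500 to 4000 nt, Rpl7l1 and Rps20, and -0.063 for Rps15a, which did not continue the order. Their lengths are implied, not measured: 3905 nt for Rps20 and 5357 nt for Rps15a, with coding sequences of 357 and 390 nt. These genes therefore cannot show how long transcripts of the family behaved. For all other genes with a mean log2 CPM over 4 the medians in these classes were -0.15, -0.12, -0.078, -0.049 and -0.019, over 32 to 1601 genes. In that same set, genes of 2500 to 4000 nt and of at least 4000 nt had medians of -0.0071 and 0.0069. The deviation in MPTP 3 correlated with length at a Spearman value of 0.54 over the 80 genes and 0.16 over the 8946 others. These values were 0.13 and -0.14 in MPTP 1, 0.064 and -0.098 in MPTP + MCT-KD 1, and 0.28 and -0.12 in MPTP + MCT-KD 2. The sets thus differed in sign in those libraries and had the same sign in every other library. The share of short transcripts differs between these sets: 21 of 80 ribosomal protein genes were under 600 nt, against 201 of all 14949 genes tested (1.34%), and the median lengths were 834 nt and 3087 nt.

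In MPTP against Ctrl, 20 of 21 ribosomal protein genes under 600 nt lay below zero, with a median of -0.066, and 27 of 37 other genes under 600 nt with a mean log2 CPM over 4 did so, with a median of -0.051. In MPTP + MCT-KD against MPTP, 14 of 21 short ribosomal protein genes lay above zero, with a median of 0.066, and 32 of 37 other short genes, with a median of 0.12. After each library was offset by a smooth curve of deviation on transcript length, the median over the 80 genes was -0.011 in MPTP against Ctrl, with 48 below zero. In MPTP + MCT-KD against MPTP it was then -0.020, with 47 below zero, against 0.020 and 29 without the offset. The offset median in MPTP + MCT-KD against Ctrl was -0.030, with 64 below zero, against -0.018 and 50 without the offset. The offset was chosen after these values were seen. What gave MPTP 3 fewer reads on short transcripts was not tested.

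**Figure D4:**
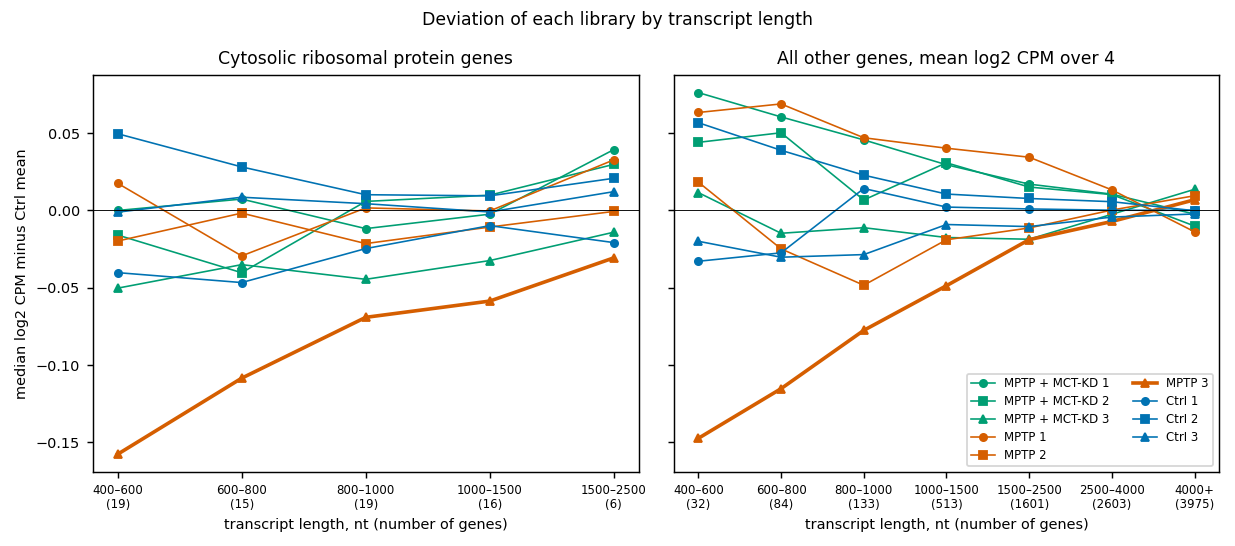
Median log2 CPM minus the Ctrl mean by transcript length class for ribosomal protein genes (left) and all other genes with a mean log2 CPM over 4 (right), with a line for each library and the number of genes in parentheses. Classes under 400 nt and those of fewer than 6 genes are left out. The thick line of MPTP 3 lies lower the shorter the transcripts in both panels, at -0.16 on the left and -0.15 on the right for 400 to 600 nt.

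Most ribosomal protein genes have processed copies elsewhere in the genome, which bears on their counts. Coding sequences were compared with all GENCODE M21 transcripts, and a near-identical copy was defined by at least 98% identity over at least 100 nt. Such a copy existed for 69 of the 80 genes, with a median of 3 and a maximum of 17 for Rpl21, and 11 genes had none, among them Rpl4, Rpl22, Rpl32, Rps3, Rps9 and Rps14. The authors' table listed 14 of these copies, belonging to 13 genes. How reads matching several places were counted is not given in the sources used here, so the counts of genes with copies are uncertain. The Spearman value of FPKM and the number of copies over the 80 genes was -0.054, and the median SD within groups was 0.054 for the genes without a copy and 0.067 for those with one.

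Rps27 and its copy Rps27rt gave the widest spread. Rps27 lies at chr3:90212522-90213651 on the minus strand with 4 exons, and Rps27rt is 1 exon at chr9:114982366-114982739 on the minus strand (GRCm38, GENCODE M21). Their coding sequences of 252 nt had 0 differences, and the longest stretch shared by the transcripts was 341 nt. The shared coding sequence, without its stop codon and with no base in capitals since none differs, is shown because a read within it cannot be assigned to either gene.
Rps27 and Rps27rt: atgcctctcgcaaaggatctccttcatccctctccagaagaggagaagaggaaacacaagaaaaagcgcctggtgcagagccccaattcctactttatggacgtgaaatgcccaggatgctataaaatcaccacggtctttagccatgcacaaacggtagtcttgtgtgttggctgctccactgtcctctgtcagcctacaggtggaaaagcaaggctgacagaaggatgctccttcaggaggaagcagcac

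Rps27 had 12.2, 18.1 and 35.5 CPM in MPTP + MCT-KD, 31.6, 6.57 and 19.9 CPM in MPTP, and 34.6, 37.5 and 29.0 CPM in Ctrl. Rps27rt had 29.2, 23.8 and 10.3 CPM in MPTP + MCT-KD, 7.85, 34.3 and 13.3 CPM in MPTP, and 8.25, 8.33 and 16.5 CPM in Ctrl. Where Rps27 was low, Rps27rt was high, and the share of Rps27rt in their sum ran from 18.2% to 83.9%. Their sum was 41.4, 41.9 and 45.8 CPM in MPTP + MCT-KD, 39.4, 40.9 and 33.2 CPM in MPTP, and 42.8, 45.8 and 45.5 CPM in Ctrl. Rps27 spanned a 5.71-fold range over the 9 libraries and the sum a 1.38-fold range. The SD within groups was 0.82 for Rps27, 0.84 for Rps27rt and 0.11 for the sum (log2 CPM).

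The log2 fold change of Rps27 in MPTP against Ctrl, -0.80 with an SE of 0.61 (adjusted p = 0.938), compares with -0.24 with an SE of 0.08 for the sum (unadjusted p = 0.013, adjusted p = 0.889). In the sum the MPTP libraries lay below the Ctrl libraries without overlap, MPTP 3 lowest. Between MPTP + MCT-KD and Ctrl the log2 fold change was -0.62 for Rps27 and -0.05 for the sum. Between MPTP + MCT-KD and MPTP it was 0.18 for Rps27 (SE 0.62) and 0.19 for the sum (SE 0.08, unadjusted p = 0.042, adjusted p = 0.627 by edgeR), and in the sum each MPTP + MCT-KD library lay above each MPTP library.

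**Figure D5:**
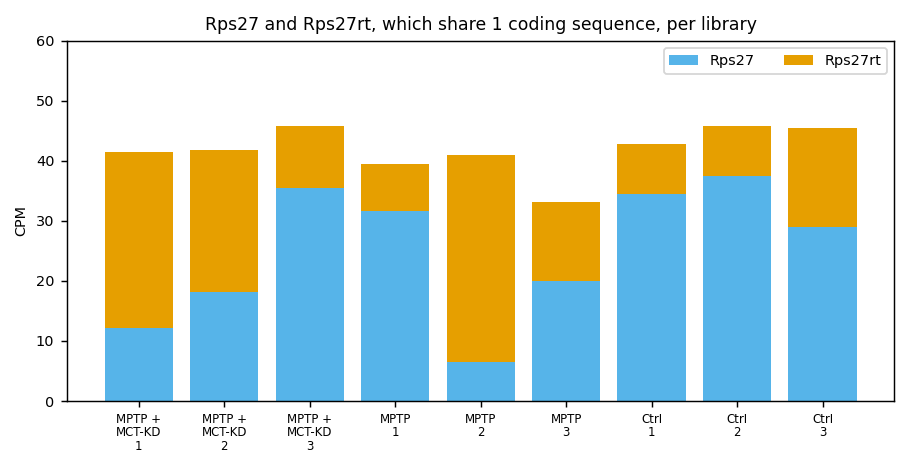
CPM of Rps27 (lower part of the bar) and Rps27rt (upper part) in each library. The parts vary from library to library, from 6.57 to 37.5 CPM for Rps27, while the full height stays between 33.2 and 45.8 CPM.

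For Rps12 the result also depended on the copy, but the sum was no less variable within groups than the gene (SD 0.10, against 0.094 for Rps12, log2 CPM). Rps12 alone had 49.6, 51.1 and 50.8 CPM in MPTP, against 53.1, 63.8 and 59.5 CPM in Ctrl, without overlap, and differed by -0.22 on the log2 scale (SE 0.07, unadjusted p = 0.010, adjusted p = 0.893). Rps12-ps3 held 50.5% to 62.0% of the reads of the pair. Rps12-ps3 had 62.4, 83.4 and 67.3 CPM in MPTP, against 65.9, 65.1 and 71.1 CPM in Ctrl, highest in MPTP 2, where Rps12 was at 51.1 CPM. The sum was 112, 135 and 118 CPM in MPTP, against 119, 129 and 131 CPM in Ctrl, with overlapping groups and a log2 difference of -0.05 (SE 0.07, adjusted p = 0.969). For Rpl21, the copy BC004004 held 52.3% to 62.8% of the sum, and for Rpl9 the copy Rpl9-ps6 held 15.7% to 18.7%. Their sums had log2 fold changes of 0.04 and -0.03 in MPTP against Ctrl.

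Other genes of the translation machinery were set beside them, and none of the genes on these lists passed in any comparison. Of 17 other mRNAs known to carry a TOP tract, such as elongation factors, 8 were above and 9 below Ctrl in MPTP, with a median log2 fold change of -0.0091. Eef1a1, the most abundant elongation factor, averaged 2131 ± 49.1 CPM in MPTP + MCT-KD, 2190 ± 17.5 CPM in MPTP and 2219 ± 71.8 CPM in Ctrl. Among 26 ribosome assembly genes, 10 were above and 16 below Ctrl in MPTP (median -0.025). Rrp9, which processes the ribosomal RNA of the small subunit, averaged 14.03 ± 1.47 CPM in MPTP + MCT-KD, 17.0 ± 0.976 CPM in MPTP and 13.5 ± 1.01 CPM in Ctrl (for MPTP against Ctrl, edgeR gave an unadjusted p of 0.0086 and an adjusted p of 0.893).

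Of 18 genes of the mTORC1 pathway, 11 were above and 7 below Ctrl in MPTP (median 0.010). Ddit4, a stress-induced inhibitor of mTORC1, averaged 38.7 ± 4.38 CPM in MPTP + MCT-KD, 32.2 ± 1.88 CPM in MPTP and 44.0 ± 9.62 CPM in Ctrl (for MPTP against Ctrl, edgeR gave an adjusted p of 0.893). Of 12 genes of ribosome rescue and quality control, 9 were above and 3 below Ctrl in MPTP (median 0.036). The 78 mitochondrial ribosomal protein genes, which build the separate ribosome of mitochondria, were split into 38 above and 40 below Ctrl in MPTP (median -0.0076).

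In MPTP + MCT-KD against MPTP, 10 of the 17 other TOP mRNAs, 13 of the 26 assembly genes, 8 of the 18 mTORC1 genes, 7 of the 12 rescue genes and 47 of the 78 mitochondrial ribosomal protein genes were above zero. Gcn1l1, which senses stalled and collided ribosomes, averaged 83.2 ± 1.83 CPM in MPTP + MCT-KD, 95.03 ± 4.78 CPM in MPTP and 88.3 ± 2.61 CPM in Ctrl (for MPTP + MCT-KD against MPTP, edgeR gave an unadjusted p of 0.0036 and an adjusted p of 0.587). These lists share libraries and scaling with the ribosomal protein genes, and no difference between lists was tested.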

How the data were processed

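Bulk RNA libraries were made with NEBNext Ultra kits from column-purified total RNA, per the labels' protocols. The authors deposited 1 table with a raw read count per gene and library, and the FPKM value beside it, per the file headers. The build was GRCm38 (mm10), per the submitters' processing notes. Aligner, counter, annotation and strandedness were not given in the sources used here. Counts of genes that overlap or lie antisense to each other are therefore uncertain. The table also had 10 lines without a gene name, which stayed out of all steps.

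The deposited counts were tested with edgeR 4.0.16 in R 4.3.3 (quasi-likelihood, robust, TMM scaling), with all 9 libraries in 1 model without a block and genes of a mean FPKM of at least 0.5. The 14949 genes tested left out 0.189% to 0.244% of counts. Adjusted p-values are Benjamini-Hochberg over all of them, with a common biological coefficient of variation of 0.134. Log2 CPM used a prior count of 0.5, and 95% intervals the edgeR standard error. No libraries of a group agreed within sampling noise (lowest chi-square per degree of freedom 11.8). The test was also run on simulated counts, whose settings and outcome are not given here. DESeq2 1.42.0 and limma 3.58.1 were alternatives. Near-identical copies were found with blastn 2.17.0. Transcript length is the median length implied by count and FPKM.

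The 80 genes and the lists were chosen with earlier results of these data known. Genes were named by rule: the 4 of smallest p per direction and comparison, the 5 highest and 5 lowest, paralogues with their parents, the 3 of largest spread, and genes with a known special role. The other genes named were chosen after their values were seen. The counts and medians cover all 80 genes, but 2 of them are not reported by name here. Replicate numbers were checked for pairing by correlating deviations from the group means over all genes tested. Same-numbered libraries correlated at 0.118 to 0.191 between MPTP + MCT-KD and MPTP, above the minimum of 0.1. They correlated at -0.158 to 0.0431 between MPTP and Ctrl, and at 0.0129 to 0.102 between MPTP + MCT-KD and Ctrl. Over the 80 genes alone the pairs 1, 2 and 3 of MPTP + MCT-KD and MPTP correlated at -0.57, 0.083 and 0.41. The highest value there, 0.72, was between MPTP + MCT-KD 1 and MPTP 2, so these genes did not follow the numbers.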

Additional observations from a re-analysis of the deposited data

How the results depend on the processing

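The number of ribosomal protein genes called was 0 in each comparison under all 24 alternatives, and all 2808 values of named genes under alternatives kept their call. As no gene was called to begin with, this says nothing of direction. Over the alternatives Rpl22 in MPTP + MCT-KD against Ctrl ran from -0.027 to 0.22 (log2 fold change), and Rps27 in MPTP + MCT-KD against MPTP from -0.36 to 0.73. Others, such as Rpl29 in MPTP against Ctrl (0.19 to 0.29), kept their direction. The alternatives were other scalings, filters, tests, pseudocounts, sets of libraries, a replicate block and, added after seeing the data, copies added to their gene, an offset for transcript length, and Ctrl 3 and MPTP 3 both left out. The replicate block changed no call of a ribosomal protein gene.

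Over all genes, MPTP against Ctrl gave 2 calls, 14 by DESeq2, 0 by limma with either pseudocount, 0 without robust moderation, 1 without scaling factors, 1 scaled to the summed ribosomal protein counts, 1 with the length offset, 0 without Ctrl 3 and MPTP 3, and 0 to 4 with each library left out. MPTP + MCT-KD against MPTP gave 0 calls, 19 by DESeq2 and 0 to 1 with each library left out. MPTP + MCT-KD against Ctrl gave 0 calls, 16 by DESeq2, 1 without the filter, 4 with only these groups in the fit, 5 with the replicate block, whose numbers pair no libraries there, and 0 to 4 with each library left out.

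With each library left out, 41 to 65 of the 80 genes lay below zero in MPTP against Ctrl (62 with all libraries), with medians of -0.056 to -0.0013, and 17 to 44 in MPTP + MCT-KD against MPTP (29 with all libraries), the lowest without MPTP 1 and the highest without MPTP 3. In that comparison 47 lay below zero with the length offset, with a median of -0.020, and 44 without Ctrl 3 and MPTP 3. By CPM, 6 of the 10 genes highest in FPKM were among the 10 highest. In MPTP against Ctrl scaled to the summed ribosomal protein counts, 47 of 80 lay below zero. That scaling largely removes a shift common to these genes, so this count cannot show whether there was one. Reads of near-identical copies, 3 libraries per group and unstated counting rules limit these values.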

Other observations

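The median Pearson r between pairs of genes over the 9 libraries was 0.43 among the 21 genes under 600 nt, 0.22 among the 59 longer genes and 0.26 over all 80, as a description of values that share their libraries, and the difference between the classes was not tested. Rpl41, which the KEGG column left out, stood at 185, 159 and 149 FPKM in MPTP + MCT-KD, 102, 165 and 119 FPKM in MPTP, and 141, 172 and 166 FPKM in Ctrl. Of the genes outside the family, Mrps34, a protein of the mitochondrial small subunit chosen after its values were seen, averaged 25.4 ± 1.246 CPM in MPTP + MCT-KD, 34.4 ± 6.58 CPM in MPTP and 44.3 ± 3.76 CPM in Ctrl (SD, n = 3 each), with a log2 fold change of -0.80 in MPTP + MCT-KD against Ctrl (edgeR adjusted p = 0.242).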
